A study of Mus musculus with 40 samples.

Results

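The HOXA genes encode homeodomain transcription factors and lie on mouse chromosome 6 in an uninterrupted row, all read from the minus strand. In embryos the row is switched on in order of position, and in bone marrow Hoxa7, Hoxa9 and Hoxa10 are the members known for their roles in stem and progenitor cells, where they sustain self-renewal and decline as cells mature. HOXA9 acts with the cofactors MEIS1 and PBX3, and high HOXA gene expression is a recurrent feature of acute myeloid leukaemia, including leukaemias that carry NUP98 fusions.

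The peaks described here are those nearest to 9 HOXA genes (Hoxa2, Hoxa3, Hoxa4, Hoxa5, Hoxa6, Hoxa7, Hoxa9, Hoxa10 and Hoxa11) in 12 peak lists. They were chosen by position alone: the summit of a peak had to have one of these genes as its nearest protein-coding start site, within 50 kb. The rule found 24 of 224171 H3K27ac peaks and 61 of 548963 H3K4me1 peaks, 85 in all. Each summit lay within 3.71 kb (H3K27ac) or 6.3 kb (H3K4me1) of the start site it was assigned to, so the distance limit of the rule was never approached. H3K27ac marks active promoters and enhancers, and H3K4me1 marks enhancers and the flanks of active promoters.

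Both marks were mapped by ChIPmentation, in which the transposase Tn5 adds adapters to immunoprecipitated chromatin, in stem and progenitor cells sorted from the blood-forming system of mice aged 21 days. The 6 genotypes were Flt3-ITD/NUP98-HOXD13, NUP98-HOXD13, Flt3-ITD/Runx1-het, Runx1-het, Flt3-ITD and wild type. Flt3-ITD is an internal tandem duplication that keeps the receptor kinase FLT3 active, NUP98-HOXD13 joins a nucleoporin to a homeodomain, and the Runx1-het samples carry source names that join Runxf and Vav. The labels give neither the exact alleles nor the promoter that drives the fusion, and they do not say whether stem cells and progenitors were kept apart. Each genotype and mark has 3 samples, or 4 for NUP98-HOXD13 H3K27ac and for both marks of Flt3-ITD/NUP98-HOXD13, pooled by the authors into 1 list. For H3K27ac the pools of 4 are thus both lists with the fusion, so pool size and fusion cannot be told apart. With 1 pooled list per group there is no value per animal, no test and no measure of replicate spread, and a place without a listed peak may still carry a mark too weak for the threshold used. Fewer cells with a mark and less of the mark per cell cannot be told apart in such lists.

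The H3K27ac lists held 31978 to 43363 peaks and the H3K4me1 lists 72682 to 117039. Read depth is not given. H3K27ac promoter peaks stood at 12 or 13 of 13 stem and progenitor markers in each list, at 1 of 6 T cell markers, 1 or 2 of 5 B cell markers, 1 or 2 of 5 erythroid markers, 0 or 1 of 5 neutrophil markers and 0 of 6 markers of stroma and other tissues. The Y-linked gene Ddx3y had a promoter peak in both Runx1-het lists alone and Xist in the other 4, so sex-linked peaks move with the Runx1-het genotypes, and their part in the results was not tested. The wild-type H3K27ac list has the narrowest peaks, with a median width of 389 bp, against 888 bp in Flt3-ITD/NUP98-HOXD13, 592 bp in NUP98-HOXD13, 586 bp in Flt3-ITD/Runx1-het, 768 bp in Runx1-het and 769 bp in Flt3-ITD.

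H3K27ac over the cluster formed 1 block at the same place in all 6 genotypes. It began in the intron of Hoxa3 next to its start site, ran across Hoxa7 and Hoxa9 and ended inside Hoxa10. The promoters that lie in the block and those just outside it are shown first, as RefSeq promoter windows (GRCm38.p6, minus strand) of 300 bases, from 250 before to 50 after the RefSeq start site, with CpG dinucleotides in capitals. Hoxa3, Hoxa7 and Hoxa9 are inside, and the 2 Hoxa10 windows are the first outside it on the 5′ side.
Hoxa3 (chr6:52213018-52213317): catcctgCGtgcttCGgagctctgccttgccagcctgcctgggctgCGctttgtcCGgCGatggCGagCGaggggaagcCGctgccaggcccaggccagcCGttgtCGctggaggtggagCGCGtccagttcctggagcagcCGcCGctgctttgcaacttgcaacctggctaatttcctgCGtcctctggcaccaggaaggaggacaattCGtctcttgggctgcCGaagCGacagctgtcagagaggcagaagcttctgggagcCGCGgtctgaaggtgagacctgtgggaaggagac
Hoxa7 (chr6:52218524-52218823): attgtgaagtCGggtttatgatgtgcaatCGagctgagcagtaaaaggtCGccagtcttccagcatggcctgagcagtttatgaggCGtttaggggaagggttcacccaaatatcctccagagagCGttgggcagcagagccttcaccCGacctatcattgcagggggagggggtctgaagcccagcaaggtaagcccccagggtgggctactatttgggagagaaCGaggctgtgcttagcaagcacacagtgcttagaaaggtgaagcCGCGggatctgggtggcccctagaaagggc
Hoxa9 (chr6:52227321-52227620): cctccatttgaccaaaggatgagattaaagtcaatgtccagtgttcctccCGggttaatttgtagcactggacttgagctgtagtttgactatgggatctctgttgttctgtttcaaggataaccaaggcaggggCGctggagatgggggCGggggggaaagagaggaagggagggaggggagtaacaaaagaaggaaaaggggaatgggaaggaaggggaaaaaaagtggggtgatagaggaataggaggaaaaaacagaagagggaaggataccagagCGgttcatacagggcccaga
Hoxa10, proximal start (chr6:52234890-52235189): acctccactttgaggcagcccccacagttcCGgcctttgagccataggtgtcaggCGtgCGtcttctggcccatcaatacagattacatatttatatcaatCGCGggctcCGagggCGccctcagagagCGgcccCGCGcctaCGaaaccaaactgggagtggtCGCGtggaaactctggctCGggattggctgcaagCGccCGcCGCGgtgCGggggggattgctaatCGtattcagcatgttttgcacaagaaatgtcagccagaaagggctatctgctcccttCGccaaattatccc
Hoxa10, distal start (chr6:52240805-52241104): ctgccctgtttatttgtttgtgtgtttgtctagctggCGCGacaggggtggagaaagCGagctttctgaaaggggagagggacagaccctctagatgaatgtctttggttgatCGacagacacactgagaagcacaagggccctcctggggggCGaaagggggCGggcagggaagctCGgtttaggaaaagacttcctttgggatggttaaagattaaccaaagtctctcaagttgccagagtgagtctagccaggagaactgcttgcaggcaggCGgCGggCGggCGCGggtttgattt

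All 300 bases of the Hoxa3 and Hoxa7 windows lay inside H3K27ac peaks in each of the 6 lists. The Hoxa9 window was covered in full in the 5 mutant lists and over 187 bases in wild type. Both Hoxa10 windows, and those of Hoxa2, Hoxa5, Hoxa6 and Hoxa11, had 0 bases inside H3K27ac peaks in every list. RefSeq windows were matched for 8 of the 9 members, all but Hoxa4, and gave 9 windows. Base composition did not follow the border of the block: CpG dinucleotides numbered 20 at Hoxa3, 9 at Hoxa7 and 4 at Hoxa9 inside it, and 21 and 12 at Hoxa10, 15 at Hoxa11, 26 at Hoxa6, 29 at Hoxa5 and 9 at Hoxa2 outside it, where the median over 32851 RefSeq windows was 7. Of these windows, 94.6% hold at least 1 CpG.

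The windows were also searched on both strands for TGATNNAT, a composite site of HOX and PBX proteins, and TGACAG, a site of the MEIS and PREP proteins. TGATNNAT was found in 1 of the 9 windows, that of Hoxa2, and is held by 8.85% of all RefSeq windows. TGACAG was found in 2 of the 9, those of Hoxa2 and Hoxa3, and is held by 19.2% of all windows. The 2 motifs did not overlap in the Hoxa2 window.

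The microRNA gene Mir196b lies in the block between Hoxa9 and Hoxa10 (chr6:52230081-52230165, minus strand), and H3K27ac peaks covered all of it in each of the 6 lists. Its mature products are shown because miR-196 is known to target HOX transcripts, with the seed (bases 2 to 8) in capitals.
mmu-miR-196b-5p (chr6:52230129-52230150): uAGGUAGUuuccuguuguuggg
mmu-miR-196b-3p (chr6:52230094-52230115): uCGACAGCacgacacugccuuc
The seed of the 5p product is shared with mmu-miR-196a-5p, whose genes lie in other HOX clusters. No H3K4me1 peak touched Mir196b in any list.

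In Flt3-ITD/NUP98-HOXD13 the block was a single H3K27ac peak of 22.8 kb (chr6:52211658-52234476), the widest of all 33935 peaks in that list. In NUP98-HOXD13 it was a single peak of 22.7 kb (chr6:52211724-52234454), the second widest of 36210. The ends of these 2 peaks differed by 66 bp on the Hoxa3 side and 22 bp on the Hoxa10 side. Taken as the region formed by overlapping peaks of the 6 lists (chr6:52211658-52234476), the block was split in the lists without the fusion. Flt3-ITD/Runx1-het had 5 peaks over 20.4 kb, with gaps of at most 290 bp, and a further weak peak 211 bp outside it on the Hoxa3 side. Runx1-het had 6 peaks over 22.1 kb, with gaps of at most 710 bp. Flt3-ITD had 2 peaks over 21.0 kb, 266 bp apart. Wild type had 9 peaks over 20.8 kb, with gaps of at most 1325 bp.

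**Figure D1:**
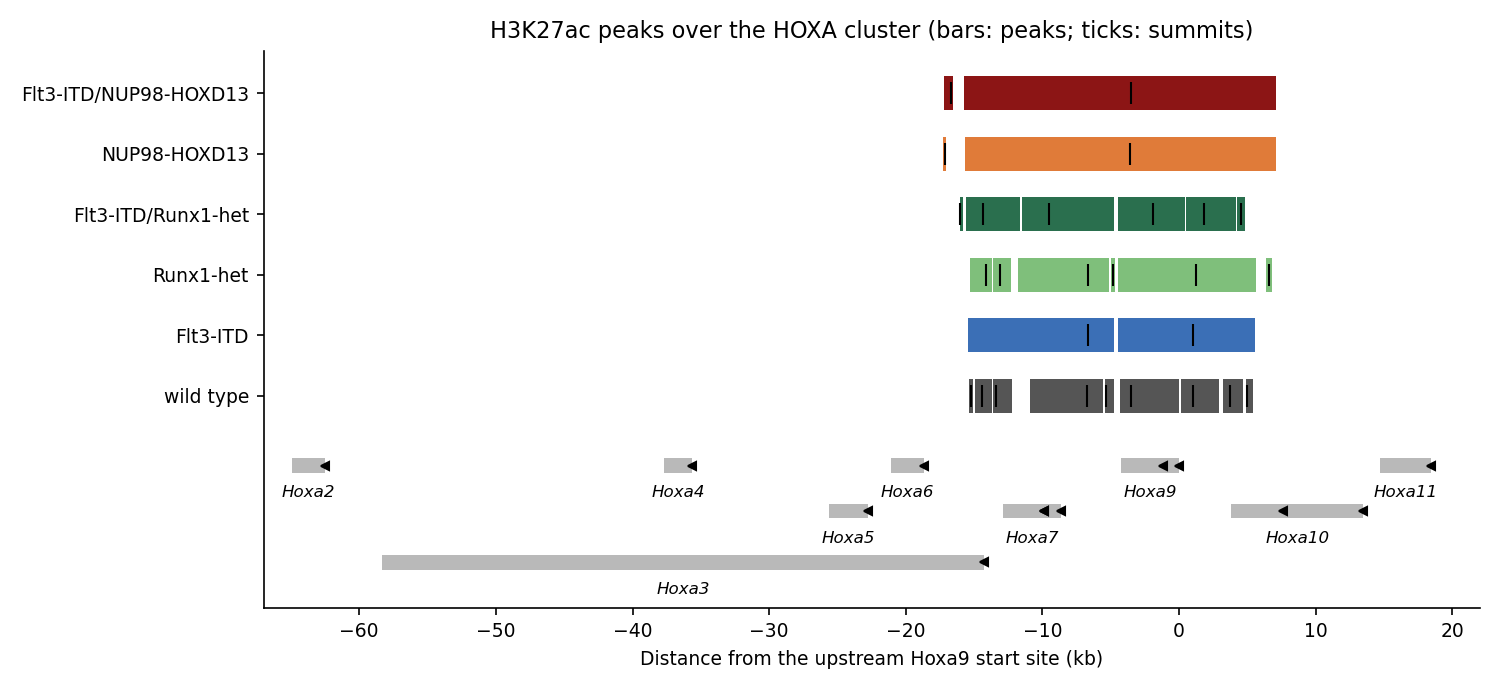
H3K27ac peaks (bars) and their summits (ticks) over the HOXA cluster in each pooled list, by distance in kb from the upstream Hoxa9 start site, with gene bodies in grey and start sites as arrowheads. The block from the Hoxa3 start site to Hoxa10 is in all 6 lists, as 1 peak in both lists with the fusion and as 2 to 9 peaks in the others.

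The block had a similar extent in all lists and differed in how many peaks it was split into. Both lists with the fusion pool 4 samples and each of the others 3, so pool size and fusion cannot be told apart in this split. In each list the span runs from the first to the last base of its own peaks, so the single peaks with the fusion cover 100% by definition. Where the block was split, peaks covered 97.2% of the span in Flt3-ITD/Runx1-het, 92.8% in Runx1-het, 98.7% in Flt3-ITD and 87.5% in wild type. Over all 6 lists the end in Hoxa3 varied by 400 bp and the end in Hoxa10 by 2290 bp. The widest single HOXA peak was 22.8 kb in Flt3-ITD/NUP98-HOXD13, 22.7 kb in NUP98-HOXD13, 6.72 kb in Flt3-ITD/Runx1-het, 10.1 kb in Runx1-het, 10.7 kb in Flt3-ITD and 5.39 kb in wild type. With neighbouring peaks joined across gaps of up to 500 bp, an alternative chosen after seeing the data, these widths became 22.8, 22.7, 20.9, 20.9, 21.0 and 16.4 kb in the same order, where the Flt3-ITD/Runx1-het interval takes in the weak peak outside the block. By width the joined interval then had rank 4 in its own list for both lists with the fusion and both Runx1-het lists, rank 2 for Flt3-ITD and rank 1 for wild type. These ranks depend on the gap chosen. In the same order they were 3, 2, 18, 5, 30 and 18 at 250 bp. At 1000 bp they were 6, 6, 5, 6, 4 and 7, and at 2000 bp 30, 14, 38, 18, 25 and 9.

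**Figure D2:**
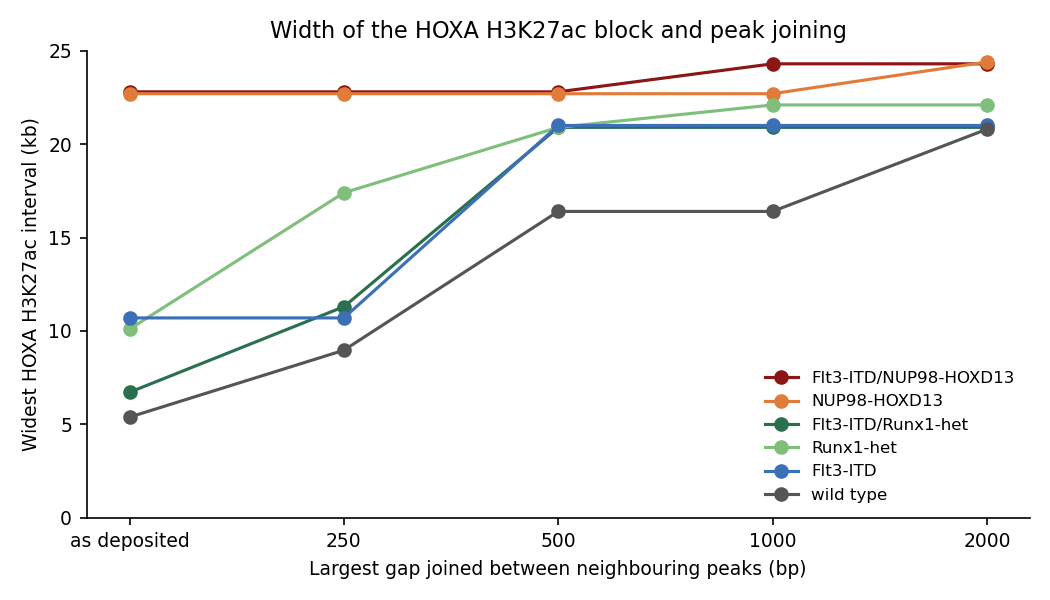
Width in kb of the widest HOXA H3K27ac interval in each list, as deposited and with peaks joined across gaps of up to 250, 500, 1000 or 2000 bp. As deposited the values run from 5.39 to 22.8 kb, and at 2000 bp they run from 20.8 to 24.4 kb.

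The end of the block inside Hoxa10 was the part of its outline that varied most. Hoxa10, a homeodomain factor that promotes proliferation of progenitors, has a proximal start site (chromosome 6, 52234939) and a distal one (52240854). The last acetylated base lay 463 bp short of the proximal start in Flt3-ITD/NUP98-HOXD13, 485 bp in NUP98-HOXD13, 2753 bp in Flt3-ITD/Runx1-het, 763 bp in Runx1-het, 2017 bp in Flt3-ITD and 2127 bp in wild type. The border of Runx1-het was set by a separate weak peak at the end of the block with a fold enrichment of 2.96, at the 2.9 percentile of its list. Without that peak, which is removed when −log10 q must reach 5, its last base (52232992) stood beside that of Flt3-ITD (52232922). In both lists with the fusion the border is the end of the single wide peak. The threshold keeps or drops whole peaks by their summit value, so it could not move that border. In wild type the last base moved to 52232014 under the threshold, and in Flt3-ITD and Flt3-ITD/Runx1-het it stayed in place.

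Promoter peaks, within 1 kb of any annotated start site, followed from the block. Hoxa3, Hoxa7 and Hoxa9 had an H3K27ac promoter peak in all 6 lists, as did 35.2% of the 21827 protein-coding genes. Hoxa2 and Hoxa4, Hoxa5 and Hoxa6 on the 3′ side and Hoxa11 on the 5′ side had none in any list, as did 50.5% of genes. Hoxa10 had one in Flt3-ITD/NUP98-HOXD13, NUP98-HOXD13 and Runx1-het. The counts were 4 of 9 members in Flt3-ITD/NUP98-HOXD13 (45.5% of all genes), 4 in NUP98-HOXD13 (45.2%), 3 in Flt3-ITD/Runx1-het (46.2%), 4 in Runx1-het (39.4%), 3 in Flt3-ITD (43.0%) and 3 in wild type (39.4%). These shares of members are near those of all genes in each list. Hoxa10 is the member by which the counts differ. Of the window 1 kb either side of its proximal start, peaks covered 26.9% in Flt3-ITD/NUP98-HOXD13, 25.8% in NUP98-HOXD13 and 11.9% in Runx1-het. These peaks did not reach the start site itself.

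**Figure D3:**
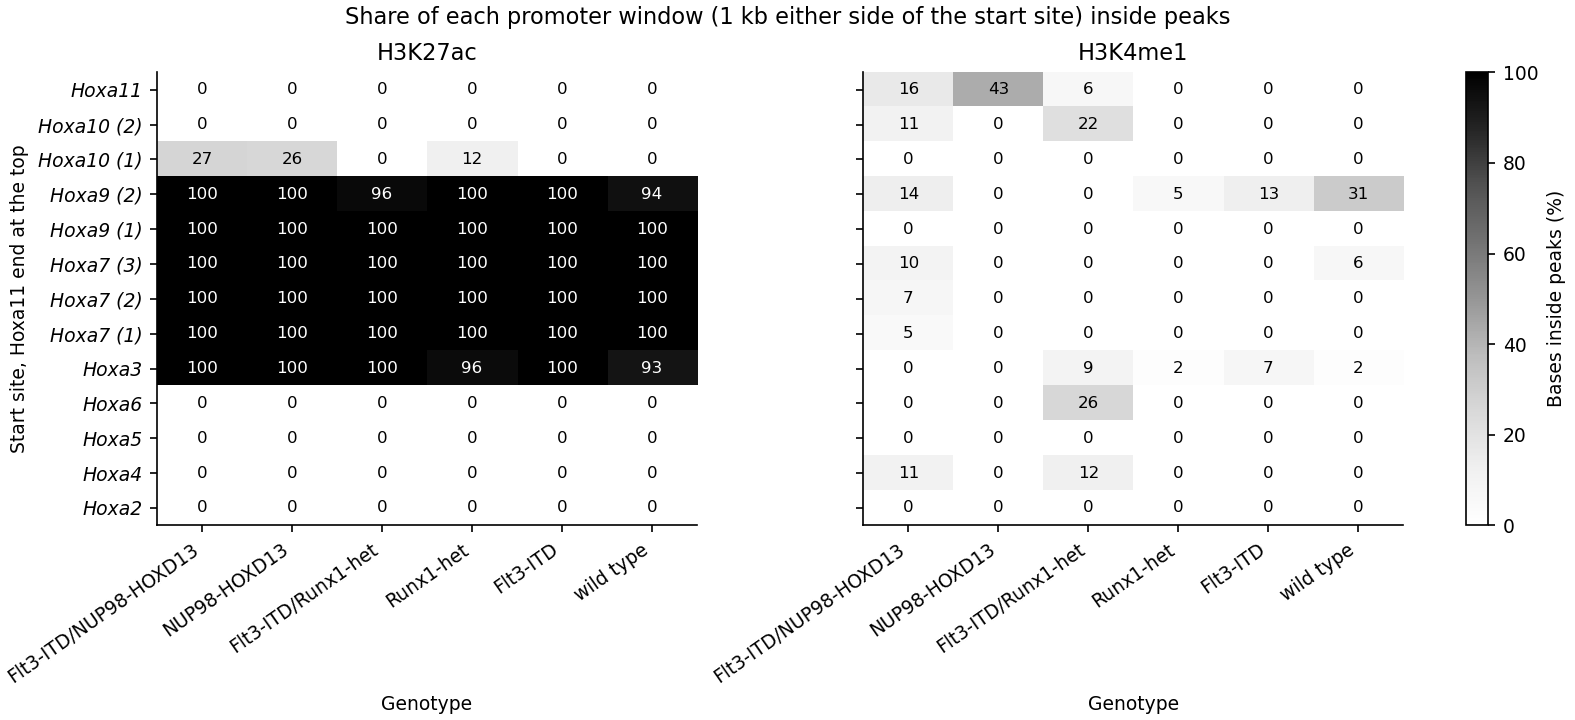
Percentage of each window of 1 kb either side of an annotated start site that lies inside H3K27ac (left) or H3K4me1 peaks (right), by start site (rows, numbered from the 3′ end of the cluster) and genotype (columns). For H3K27ac the windows of Hoxa3, Hoxa7 and Hoxa9 are covered by 92.7% to 100% in every list, and for H3K4me1 no window exceeds 42.8%.

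Hoxa3, which patterns the pharyngeal arches and hindbrain, has its annotated start site (52213115) away from its coding exons, between Hoxa6 and Hoxa7, and so falls within the block, while most of its gene body lies outside. H3K27ac peaks covered 100% of its promoter window in 4 lists, 95.9% in Runx1-het and 92.7% in wild type. Hoxa7 and Hoxa9 were the centre of the block. Between the downstream start sites of Hoxa7 and Hoxa9, a stretch of 8.74 kb, H3K27ac covered 100% in both lists with the fusion, 96.7% in Flt3-ITD/Runx1-het, 96.3% in Runx1-het, 97.0% in Flt3-ITD and 94.2% in wild type. From there to the proximal Hoxa10 start site, a further 8.75 kb, coverage was 94.7% in Flt3-ITD/NUP98-HOXD13, 94.5% in NUP98-HOXD13, 66.9% in Flt3-ITD/Runx1-het, 83.2% in Runx1-het, 77.0% in Flt3-ITD and 68.6% in wild type. From Hoxa2 to Hoxa6 and from the proximal Hoxa10 start site to Hoxa11 no H3K27ac peak was listed in any genotype.

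The strongest summit of the block stood at different places in lists with and without the fusion. Fold enrichments are the authors' values and rank peaks within a list. In Flt3-ITD/NUP98-HOXD13 the fold enrichment was 45.5 (99.7 percentile of its list) and in NUP98-HOXD13 it was 27.5 (99.1 percentile), with summits at 52223869 and 52223802, 67 bp apart in an annotated untranslated region of Hoxa9. In Runx1-het it was 20.3 (96.1 percentile), in Flt3-ITD 21.4 (96.2 percentile) and in wild type 15.6 (97.1 percentile), with summits within 67 bp of each other between Hoxa7 and Hoxa9 (52220601 to 52220668). In Flt3-ITD/Runx1-het it was 18.3 (96.0 percentile), at 52217852 in a Hoxa7 intron. Wild type also had a summit at the Hoxa9 place (52223833), with a fold enrichment of 13.9, so this position was not particular to the fusion. A peak list gives 1 summit per peak, and the single wide peaks of both lists with the fusion hide any lower summits inside them.

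Wild type, where the block is split most, gives the values along it. From the Hoxa3 side its HOXA peaks had fold enrichments of 4.01 and 8.21 at Hoxa3, 15.6 and 3.42 at Hoxa7, 13.9, 13 and 9.61 at Hoxa9 and 4 at Hoxa10. The highest values stood at Hoxa7 and Hoxa9, with lower ones at both ends. Flt3-ITD/Runx1-het likewise had 8.50 at Hoxa3, 18.3 at Hoxa7, 11.4 and 15.1 at Hoxa9 and 6.96 at Hoxa10. In Runx1-het the values were 20.3 at Hoxa7, 5.74 and 7.63 at Hoxa9 and 2.96 at Hoxa10, and in Flt3-ITD they were 21.4 at Hoxa7 and 15.9 at Hoxa9. A further 3 H3K27ac peaks of the block, 1 over the Hoxa3 start site in Runx1-het (8.10) and 2 between Hoxa3 and Hoxa7, in Runx1-het (8.39) and in wild type (7.38), fell outside the rule because Gm28308, a read-through gene model, starts 224 bp from Hoxa3 and was nearer.

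Outside the block 2 small H3K27ac regions were assigned to members. The one between Hoxa6 and the Hoxa3 start site (chr6:52210073-52210823) was listed in both lists with the fusion, with fold enrichments of 3.46 in Flt3-ITD/NUP98-HOXD13 and 2.86 in NUP98-HOXD13, at the 22.5 and 7.3 percentiles of their lists, and in no other list, a pattern that 1.39% of all 71518 H3K27ac regions show. The other (chr6:52211314-52211547) was listed in Flt3-ITD/Runx1-het alone, with a fold enrichment of 2.33 at the 0.8 percentile. Both are weak peaks, and neither remained at −log10 q of at least 5. The third region, the block, was in all 6 lists, as were 19.3% of all regions.

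Set against wild type, 1 of the 3 HOXA regions was gained in Flt3-ITD/NUP98-HOXD13, where 16.6% of all regions were gained and 19.5% lost. The same region was gained in NUP98-HOXD13, where 14.5% were gained and 20.5% lost, and the weak Hoxa3 region was gained in Flt3-ITD/Runx1-het, where 22.3% were gained and 19.2% lost. No HOXA region was gained in Runx1-het (14% gained, 21.3% lost) or in Flt3-ITD (17.2% gained, 18.9% lost). Adding Flt3-ITD to NUP98-HOXD13 gained no HOXA region (12.9% gained, 9.79% lost), and adding it to Runx1-het gained the weak Hoxa3 region (22.8% gained, 12.4% lost). No HOXA H3K27ac region was lost in any of the 7 comparisons. All 5 comparisons with wild type share its list.

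The HOXA block was listed in every genotype, whereas H3K27ac over the HOXB and HOXC clusters was broad in both lists with the fusion alone. Peaks of H3K27ac covered 23.5 kb of the 83.4 kb from Hoxa2 to Hoxa11 in Flt3-ITD/NUP98-HOXD13, 23.0 kb in NUP98-HOXD13, 20.1 kb in Flt3-ITD/Runx1-het, 20.5 kb in Runx1-het, 20.8 kb in Flt3-ITD and 18.2 kb in wild type. In the HOXB cluster they covered 23.0 kb in Flt3-ITD/NUP98-HOXD13 and 20.7 kb in NUP98-HOXD13, against 0.575 kb in Flt3-ITD/Runx1-het, 1.79 kb in Runx1-het, 1.90 kb in Flt3-ITD and 2.43 kb in wild type. The HOXC cluster had 29.5 kb in Flt3-ITD/NUP98-HOXD13, 26.7 kb in NUP98-HOXD13 and 0 kb in the other 4 lists, and the HOXD cluster had 0 kb in all 6. With no value per animal these differences between clusters were not tested. The HOXB and HOXC peaks with the fusion were also narrower than the HOXA peak, with widest peaks of 8.90 and 8.80 kb in Flt3-ITD/NUP98-HOXD13 and 6.65 and 6.90 kb in NUP98-HOXD13.

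**Figure D4:**
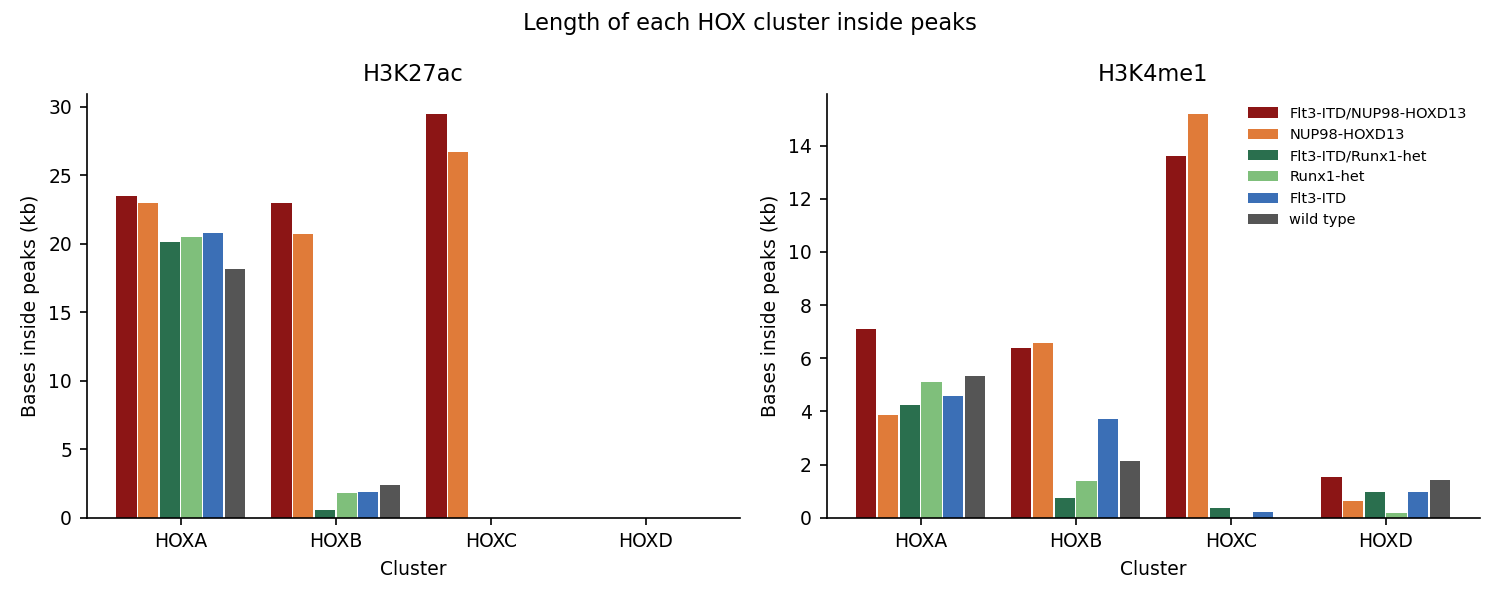
Kilobases of each HOX cluster inside H3K27ac (left) or H3K4me1 peaks (right), by cluster and genotype. For H3K27ac the HOXA bars stand between 18.2 and 23.5 kb in all 6 lists, while HOXB and HOXC stand at 20.7 to 29.5 kb in both lists with the fusion and stay at or below 2.43 kb in the others.

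H3K4me1 gave a different picture, with short scattered peaks of low fold enrichment. The rule found 16 peaks in Flt3-ITD/NUP98-HOXD13, 12 in NUP98-HOXD13, 10 in Flt3-ITD/Runx1-het, 7 in Runx1-het, 7 in Flt3-ITD and 9 in wild type. Their highest fold enrichment was 5.40 in Flt3-ITD/NUP98-HOXD13, 4.76 in NUP98-HOXD13, 6.23 in Flt3-ITD/Runx1-het, 8.13 in Runx1-het, 8.04 in Flt3-ITD and 7.01 in wild type, at the 87.9, 78.7, 92.2, 98.1, 98.5 and 96.2 percentiles of their own lists. Merged over the lists they formed 23 regions, of which 10 were in 1 list, where 49.3% of all 181776 H3K4me1 regions were in 1 list.

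**Figure D5:**
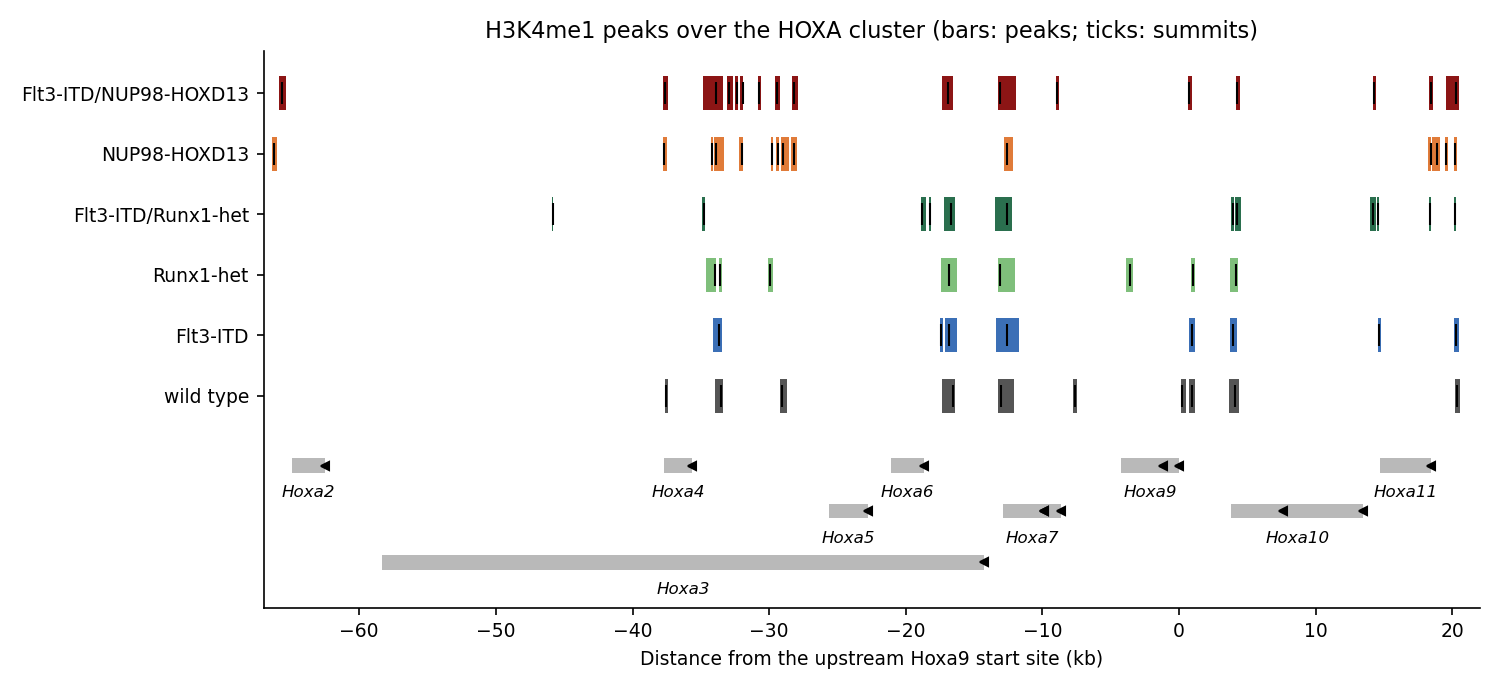
H3K4me1 peaks (bars) and their summits (ticks) over the HOXA cluster in each pooled list, by distance in kb from the upstream Hoxa9 start site, with gene bodies in grey and start sites as arrowheads. Peaks between Hoxa4 and Hoxa5 number 7 in each list with the fusion and 1 to 3 in the others, and the peaks next to Hoxa6 and Hoxa10 are missing from NUP98-HOXD13 alone.

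At Hoxa4 and Hoxa5, which in embryos pattern the cervical and thoracic skeleton, H3K4me1 peaks covered more bases in both lists with the fusion. Between their start sites, a stretch of 12.8 kb with no H3K27ac, H3K4me1 peaks covered 3.46 kb in Flt3-ITD/NUP98-HOXD13 and 2.61 kb in NUP98-HOXD13, against 0.249 kb in Flt3-ITD/Runx1-het, 1.28 kb in Runx1-het, 0.653 kb in Flt3-ITD and 1.12 kb in wild type. Summits in this stretch numbered 7 in each list with the fusion, 1 in Flt3-ITD/Runx1-het, 3 in Runx1-het, 1 in Flt3-ITD and 2 in wild type. One region upstream of Hoxa4 (chr6:52192435-52194066) was in all 6 lists, as were 9.97% of all H3K4me1 regions, with fold enrichments of 5.35 in Flt3-ITD/NUP98-HOXD13, 4.30 in NUP98-HOXD13, 3.63 in Flt3-ITD/Runx1-het, 3.34 in Runx1-het, 3.91 in Flt3-ITD and 3.92 in wild type. A pair of regions was in both lists with the fusion and no other, a pattern of 1.77% of all regions. They were chr6:52195187-52195484 at Hoxa4, with 3.32 in Flt3-ITD/NUP98-HOXD13 and 3.83 in NUP98-HOXD13, and chr6:52198972-52199498 at Hoxa5, with 2.97 and 4.44. No NUP98-HOXD13 peak at these genes reached −log10 q of 5. In Flt3-ITD/NUP98-HOXD13 the pair did not reach it either, with 2.01 at Hoxa4 and 1.64 at Hoxa5. The highest −log10 q at Hoxa4 in that list was 7.34, in the region held by all 6 lists. Higher H3K4me1 coverage with the fusion was not particular to this stretch. Over the HOXC cluster H3K4me1 covered 13.6 kb in Flt3-ITD/NUP98-HOXD13 and 15.2 kb in NUP98-HOXD13, against at most 0.364 kb in the others. The noncoding gene Hoxa11os, described below, also had more with the fusion.

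Hoxa6, a neighbour of the block on its 3′ side, and Hoxa10 each had an H3K4me1 region that was missing from the NUP98-HOXD13 list alone. The Hoxa6 region (chr6:52209873-52211099), just outside the H3K27ac block, had a fold enrichment of 5.40 with Flt3-ITD/NUP98-HOXD13, 5.46 with Flt3-ITD/Runx1-het, 8.13 with Runx1-het, 8.04 with Flt3-ITD and 7.01 in wild type. The Hoxa10 region (chr6:52231046-52231895), at the 3′ end of the gene and inside the block, had 3.05 with Flt3-ITD/NUP98-HOXD13, 6.14 with Flt3-ITD/Runx1-het, 6.31 with Runx1-het, 6.08 with Flt3-ITD and 5.22 in wild type. The small H3K27ac region of both lists with the fusion lies inside the Hoxa6 region. A peak between Hoxa3 and Hoxa7 assigned to Gm28308 (chr6:52213927-52215631) was in all 6 H3K4me1 lists, with fold enrichments of 5.29, 4.76, 7.69, 6.6, 8.25 and 7.71 in the order Flt3-ITD/NUP98-HOXD13, NUP98-HOXD13, Flt3-ITD/Runx1-het, Runx1-het, Flt3-ITD and wild type, and it was the strongest H3K4me1 peak of the cluster in Flt3-ITD/Runx1-het, Flt3-ITD and wild type.

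Hoxa9, the member most closely tied to leukaemia, had an H3K4me1 region upstream of its start site (chr6:52228016-52228531) with fold enrichments of 3.36 with Flt3-ITD/NUP98-HOXD13, 4.13 with Runx1-het, 3.36 with Flt3-ITD and 3.38 in wild type, and no peak there in NUP98-HOXD13 or Flt3-ITD/Runx1-het. Another region nearer the start site (chr6:52227512-52227837) was in wild type alone (5.04). One within the gene (chr6:52223450-52223971) was in Runx1-het alone (2.79). Hoxa11, a posterior gene that patterns limbs and the reproductive tract, had an H3K4me1 region over its start site (chr6:52245566-52246475). It was listed in Flt3-ITD/NUP98-HOXD13 (3.71), NUP98-HOXD13 (4.44) and Flt3-ITD/Runx1-het (3.33), and in no other list. In NUP98-HOXD13 the peak over the start site itself had 3.64, and the 4.44 belongs to a separate peak beside it. Hoxa7 had 1 H3K4me1 peak in Flt3-ITD/NUP98-HOXD13 (4.42) and 1 in wild type (3.64), at different places. Hoxa2, the most 3′ member and a hindbrain patterning gene, had 1 peak, in Flt3-ITD/NUP98-HOXD13 (4.36).

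H3K4me1 promoter peaks stood at 5 of 9 members in Flt3-ITD/NUP98-HOXD13 (30.3% of all genes), 1 in NUP98-HOXD13 (28.7%), 5 in Flt3-ITD/Runx1-het (30.1%), 2 in Runx1-het (20.7%), 2 in Flt3-ITD (27.9%) and 3 in wild type (20.8%). Different members made up these counts, with Hoxa4, Hoxa7, Hoxa9, Hoxa10 and Hoxa11 in Flt3-ITD/NUP98-HOXD13, Hoxa11 in NUP98-HOXD13, Hoxa3, Hoxa4, Hoxa6, Hoxa10 and Hoxa11 in Flt3-ITD/Runx1-het, Hoxa3 and Hoxa9 in Runx1-het and in Flt3-ITD, and Hoxa3, Hoxa7 and Hoxa9 in wild type. Hoxa3 had one in each of the 4 lists without the fusion and in neither list with it, but these peaks overlapped its window by 189 bp or less, from the Gm28308 region.

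Against wild type, Flt3-ITD/NUP98-HOXD13 gained 9 and lost 2 of the 23 HOXA H3K4me1 regions, where 23.2% of all regions were gained and 13.2% lost. NUP98-HOXD13 gained 4 and lost 5 (21.4% and 15.3% of all regions), and Flt3-ITD/Runx1-het gained 5 and lost 5 (30.7% and 14.5%). Runx1-het gained 2 and lost 5 (15.2% and 15.7%), and Flt3-ITD gained 1 and lost 4 (22.1% and 12.9%). Flt3-ITD/NUP98-HOXD13 gained 9 and lost 1 against NUP98-HOXD13 (18.3% and 14.3%), and Flt3-ITD/Runx1-het gained 6 and lost 3 against Runx1-het (30.2% and 13.6%). These counts rest on weak peaks. At −log10 q of at least 5 the NUP98-HOXD13 H3K4me1 list keeps 7.23% of its peaks and no HOXA peak, the other 5 lists keep 17.5% to 34.0%, and the 9 gains of Flt3-ITD/NUP98-HOXD13 against wild type become 3.

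The marks overlapped in part. Of the H3K4me1 bases from Hoxa2 to Hoxa11, 37.7% lay inside H3K27ac peaks in Flt3-ITD/NUP98-HOXD13, 17.3% in NUP98-HOXD13, 42.1% in Flt3-ITD/Runx1-het, 46.3% in Runx1-het, 56.7% in Flt3-ITD and 53.4% in wild type. Over the whole genome the shares were 33.3%, 28.6%, 29.3%, 29.0%, 32.0% and 21.6% in that order. By bases NUP98-HOXD13 was the one list whose HOXA share lay below its genome share, and its share rests on 1 of 10 peaks. Counted by peaks that touch H3K27ac, Flt3-ITD/Runx1-het also lay below, with 3 of 11 against 29.6% over the genome.

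Among the genes known to work with HOXA proteins, the cofactors had H3K27ac promoter peaks at 6 of 9 in Flt3-ITD/NUP98-HOXD13, 6 in NUP98-HOXD13, 5 with Flt3-ITD/Runx1-het and 4 each in Runx1-het, Flt3-ITD and wild type. Pbx3, the PBX partner of HOXA9 in leukaemia, had the highest cofactor value in both lists with the fusion, 34.6 in Flt3-ITD/NUP98-HOXD13 and 21.6 in NUP98-HOXD13, and no promoter peak in the other 4. Meis1, a cofactor that raises the leukaemic activity of HOXA9, had 13 in Flt3-ITD/NUP98-HOXD13, 5.92 in NUP98-HOXD13, 23.0 in Flt3-ITD/Runx1-het, 47.5 in Runx1-het, 47.5 in Flt3-ITD and 40.2 in wild type, and was the highest cofactor in the last 4. Activators of HOX chromatin, which include the methyltransferase gene Kmt2a and its partner Men1, had promoter peaks at 13, 13, 14, 11, 13 and 13 of 17 in the same order. Polycomb repressors, which keep HOX genes silent, had them at 17, 19, 19, 16, 16 and 16 of 21. Genes bound by HOXA9 and MEIS1 in leukaemia had them at 12 of 14 in every list but NUP98-HOXD13, which had 13. Over all genes the share was 39.4% to 46.2%.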

How the data were processed

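The series holds 40 samples, of which 39 carry a mark and fall into 12 groups by genotype and mark, taken from the labels, and 1 is an input, not analysed here. BWA and MACS2 are the aligner and peak caller named, with build mm10 (GRCm38), per the submitters' processing notes. Their versions, the peak threshold and the read depth are not given in the sources used, so no depth-based precision can be stated. Per the labels each group has 1 pooled list.

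Each deposited list gives a score (not used beyond a check of its scale), a ratio (the authors' fold enrichment at the summit), the −log10 p and −log10 q of the peak caller, and the summit offset. The deposited fold enrichment ranked and described peaks within a list and was never subtracted between lists.

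The members and gene lists were chosen with earlier results of these data known. All 9 members are named by rule, and of the gene lists the highest genes only. Start sites came from GENCODE mouse release 21, basic set (21827 protein-coding genes, 41433 start sites). Peaks within 1 kb of a start site were promoter peaks. The 6 lists of a mark were merged (1 bp overlap) into union regions, assigned by their middle. A region was gained when held by the first-named list but not by the other, and lost when held by the other alone. Percentiles are shares of a list's peaks with equal or lower fold enrichment, the peak itself included. Sequences came from RefSeq (GRCm38.p6). The steps were tested on simulated data, with python 3.11.15, pandas 2.3.3 and numpy 2.4.6. Alternatives were promoter and distance limits, equal-length lists, a −log10 q of at least 5, start-site and overlap rules, and, chosen after seeing the data, the comprehensive annotation, leaving out Gm28308 and joining neighbouring peaks.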

Additional observations from a re-analysis of the deposited data

How the results depend on the processing

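No paired analysis was possible because each group is 1 pooled list, and leaving out replicates was not possible for the same reason. Of 301 values under alternatives, 239 stayed within 1.5 times the reported value and 62 did not. Counts that stayed at 0 are among the 239. None moved by this rule with the comprehensive annotation or without Gm28308 (both chosen after seeing the data). Nor did any with start sites within 10 or 100 kb, promoters of 500 bp or 2 kb, or distances from the middle of the peak. The 10 kb limit could not drop a peak, since each summit lay within 6.3 kb of its start site. The rule is too coarse for the H3K27ac promoter counts, which differ between lists as 3 against 4 members. Runx1-het went from 4 to 3 members at 500 bp, and both lists with the fusion from 4 to 5 at 2 kb. Without Gm28308 the H3K27ac peaks of Runx1-het went from 4 to 6. A −log10 q of at least 5 moved 26 of 46 values, a summit required in the promoter 4 of 6, and each gap for joining peaks 3 or 4 of 6.

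With the summit itself required in the promoter, the H3K27ac member counts became 0 in Flt3-ITD/NUP98-HOXD13, 0 in NUP98-HOXD13, 1 in Runx1-het and 0 in Flt3-ITD, since the wide peaks have their summits elsewhere. The count stayed at 3 in Flt3-ITD/Runx1-het and was 2 in wild type, so both stood above the lists with the fusion under this rule. At −log10 q of at least 5 the H3K27ac peaks numbered 1 in Flt3-ITD/NUP98-HOXD13, 1 in NUP98-HOXD13 and 5 in wild type, and the H3K4me1 peaks 4, 0, 3, 2, 2 and 3 in Flt3-ITD/NUP98-HOXD13, NUP98-HOXD13, Flt3-ITD/Runx1-het, Runx1-het, Flt3-ITD and wild type. In equal-length lists NUP98-HOXD13 kept 1 H3K27ac peak and Flt3-ITD/Runx1-het 5 H3K4me1 peaks.

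H3K27ac gains against wild type became 0 at −log10 q of at least 5 for Flt3-ITD/NUP98-HOXD13, NUP98-HOXD13 and Flt3-ITD/Runx1-het, 0 for equal-length lists (Flt3-ITD/Runx1-het, NUP98-HOXD13), and 0 for NUP98-HOXD13 with at least 0.5 of the region covered. The gain of Flt3-ITD/NUP98-HOXD13 over NUP98-HOXD13 became 1 in equal-length lists and with 0.5 covered, and that of Flt3-ITD/Runx1-het over Runx1-het became 0 in equal-length lists and at the stricter threshold.

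H3K4me1 gains and losses against wild type at −log10 q of at least 5 were 3 gained in Flt3-ITD/NUP98-HOXD13, 0 gained and 3 lost in NUP98-HOXD13, 1 and 1 for Flt3-ITD/Runx1-het, 0 and 1 in Runx1-het and 0 and 1 in Flt3-ITD, and 4 gained and 0 lost when Flt3-ITD/NUP98-HOXD13 was set beside NUP98-HOXD13, with 1 and 0 for Flt3-ITD/Runx1-het against Runx1-het. In equal-length lists they were 4 lost in Flt3-ITD/NUP98-HOXD13, 2 gained in Flt3-ITD/Runx1-het and 0 gained in Flt3-ITD, with 3 lost against NUP98-HOXD13 and 3 gained against Runx1-het in the double mutants. With 0.5 covered, 4 were lost in Flt3-ITD/NUP98-HOXD13 and 3 gained in Flt3-ITD/Runx1-het against wild type, with 2 lost against NUP98-HOXD13 and 3 gained against Runx1-het in the double mutants.

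The widest H3K27ac interval with gaps of up to 250, 500, 1000 and 2000 bp joined was 11.3, 20.9, 20.9 and 20.9 kb in Flt3-ITD/Runx1-het, 17.4, 20.9, 22.1 and 22.1 kb in Runx1-het and 8.97, 16.4, 16.4 and 20.8 kb in wild type. In Flt3-ITD it was 21.0 kb at 500, 1000 and 2000 bp. Both lists with the fusion stayed between 22.7 and 24.4 kb. Apart from the settings whose construction shows it, the cause of these moves was not tested. Depth is unknown, so the absence of a weak H3K4me1 peak from a list cannot be told from limited depth.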

Other observations

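Noncoding genes of the cluster other than Mir196b lay mostly outside the H3K27ac block. Hotairm1, Hoxaas2, Hottip and Hoxa11os, long noncoding RNA genes at the ends and middle of the cluster, had 0% of their length inside H3K27ac peaks in all 6 lists. Hoxaas3, which runs from the Hoxa3 gene body into the block on the plus strand, had 10.3% in Flt3-ITD/NUP98-HOXD13, 9.04% in NUP98-HOXD13, 8.91% in Flt3-ITD/Runx1-het, 7.34% in Runx1-het, 8% in Flt3-ITD and 7.35% in wild type. For H3K4me1, Hotairm1 had 13.2% in Flt3-ITD/NUP98-HOXD13, 20.8% in NUP98-HOXD13, 13.5% in Flt3-ITD/Runx1-het, 7.8% in Runx1-het, 24.1% in Flt3-ITD and 0% in wild type. Hoxaas3 had 14.1% in Flt3-ITD/NUP98-HOXD13 and 7.15% to 8.66% in the other 5 lists, and Hoxaas2 and Hottip had 0% in all 6. Hoxa11os had 24.6% in Flt3-ITD/NUP98-HOXD13 and 22.5% in NUP98-HOXD13, against 5.99% in Flt3-ITD/Runx1-het, 0% in Runx1-het, 6.53% in Flt3-ITD and 6.21% in wild type.

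Hoxa13, the most 5′ gene of the cluster and not among the 9 described, had no H3K27ac peak nearest to it in any list. It had 2 H3K4me1 peaks in NUP98-HOXD13, plus 1 in Flt3-ITD/Runx1-het, and none in the other 4 lists.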
